A study of Rattus norvegicus with 4 samples.

Results

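The unfolded protein response and the integrated stress response were followed through 42 listed genes in rat vessels with and without protein kinase C beta. The members are the stress sensors and their transcription factors (5 genes), the chaperones and folding enzymes of the endoplasmic reticulum (ER, 15), ER-associated degradation (ERAD, 8), the translocon and ER membrane (4), the stress effectors downstream of ATF4 and CHOP (5) and ATF4-driven enzymes of amino acid and one-carbon metabolism (5). They were picked by gene symbol, through the RefSeq accession that each array probe carries, with no rule on their values. The list itself was drawn up with earlier results of these data known. Of the 42 genes, 40 had a named probe, 39 gave signal well above background on 1 array or more and 37 on all 4, out of 16580, 9966 and 8600 genes on the array. Manf and Derl2 had no named probe, and Ern1 was not well above background on any array.

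Total RNA of vessels from male rats was hybridised to 1-colour arrays, 1 array for each of 4 groups. The WT groups came from Wistar rats and the KO groups from rats labelled as carrying a PKCbeta deletion. In each genotype 1 array held vessels labelled as control and 1 held vessels treated with angiotensin II (Ang II) for 24 h. The labels name 4 rats of each genotype. The sources used here do not give which vessel was taken, the rats' age, the Ang II dose, how the deletion was made or whether RNA of several rats was pooled. With 1 array a group there is no spread between replicates, and no single comparison has a test.

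When unfolded proteins collect in the ER, 3 sensors in its membrane respond. ATF6 is cut and its freed part enters the nucleus, and IRE1 (Ern1) splices the Xbp1 messenger; both branches switch on chaperone and ERAD genes. PERK (Eif2ak3) phosphorylates the initiation factor eIF2, which lowers general protein synthesis but lets ATF4 be translated; ATF4 in turn switches on amino acid enzymes and, with CHOP (Ddit3), the stress effectors. Other eIF2 kinases reach ATF4 without ER stress, and that wider network is the integrated stress response. Vessel wall cells secrete collagen, elastin and other matrix proteins, which load the ER folding machinery.

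The promoters of these genes carry short elements that the branches of the response read. Upstream sequences came from RefSeq (GRCr8), which held 36 of the 42 members (not Atf6, Ern1, Pdia3, Pdia6, Manf and Derl1). The ER stress element (ERSE), CCAAT and CCACG with 9 bases between them, was searched on both strands from 250 bases before to 50 after each gene's start. It was found in 8 of the 36 members' promoters (22.2%) and in 21 of all 27457 promoters (0.0765%). Of the chaperone and ERAD promoters 7 of 19 held it (36.8%), as did that of Xbp1, and 0 of 10 ATF4 target promoters did. The 9 sites are shown in the direction of the motif to let the chaperone promoters be compared; capitals mark the fixed bases. Carriers ranged widely in the KO against WT log2 ratio without Ang II, from -1.48 for Creld2 to -0.10 for Xbp1, and Dnajb9, also at -1.48, held none of the motifs searched.
Xbp1: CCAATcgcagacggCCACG
Hspa5: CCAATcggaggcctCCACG
Hsp90b1, farther: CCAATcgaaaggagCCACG
Hsp90b1, nearer: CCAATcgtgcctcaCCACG
Dnajc3: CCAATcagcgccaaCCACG
Calr: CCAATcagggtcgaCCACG
Canx: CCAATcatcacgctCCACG
Creld2: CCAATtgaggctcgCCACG
Derl3: CCAATaaggaagtcCCACG
The shorter form of the element, ERSE-II (ATTGG and CCACG with 1 base between), was found in 3 of 36 members, Hyou1, Dnajb11 and Herpud1, and in 15 of all promoters (0.0546%). The core of the XBP1-bound element (TGACGTGG) was found in Hyou1, where it overlaps an ERSE-II, and in Dnajc10, and in 0.637% of all promoters. The C/EBP-ATF element read by ATF4 and CHOP (CARE, TGATGNAA) was found in Herpud1, Trib3 and Chac1, which is 8.33% of the members against 3.82% of all promoters. A match is a description of letters and not of binding.

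The 250 bases before the start are printed for 4 members, with every match in capitals and read 5′ to 3′ on the gene's strand. Hspa5 and Creld2 stand for the chaperones, Herpud1 carries elements of both arms, and Trib3 stands for the stress effectors.
Hspa5, chr3:38452766-38453015, plus strand: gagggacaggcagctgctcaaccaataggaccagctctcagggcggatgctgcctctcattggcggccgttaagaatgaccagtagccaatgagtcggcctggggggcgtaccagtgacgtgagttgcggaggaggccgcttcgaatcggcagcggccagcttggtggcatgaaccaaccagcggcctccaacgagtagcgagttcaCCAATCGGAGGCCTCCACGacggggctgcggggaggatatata
Creld2, chr7:121789134-121789383, plus strand: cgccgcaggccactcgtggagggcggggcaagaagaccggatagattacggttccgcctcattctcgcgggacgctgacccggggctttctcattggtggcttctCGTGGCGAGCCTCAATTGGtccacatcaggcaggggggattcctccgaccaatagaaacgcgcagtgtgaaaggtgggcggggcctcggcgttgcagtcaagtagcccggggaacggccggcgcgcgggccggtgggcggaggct
Herpud1, chr19:10614708-10614957, minus strand: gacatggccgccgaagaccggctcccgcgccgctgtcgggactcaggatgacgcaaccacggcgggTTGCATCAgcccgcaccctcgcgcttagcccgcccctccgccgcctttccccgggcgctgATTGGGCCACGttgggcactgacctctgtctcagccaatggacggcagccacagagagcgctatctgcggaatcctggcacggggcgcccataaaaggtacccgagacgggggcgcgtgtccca
Trib3, chr3:161275534-161275783, minus strand: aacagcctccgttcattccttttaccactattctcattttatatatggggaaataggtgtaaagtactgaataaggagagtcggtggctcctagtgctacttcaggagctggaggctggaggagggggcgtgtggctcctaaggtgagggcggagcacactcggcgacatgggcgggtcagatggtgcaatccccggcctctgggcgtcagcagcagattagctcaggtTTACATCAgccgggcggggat
The Hspa5 ERSE runs from -43 to -25 relative to the start, counted as 0, and the Creld2 ERSE from -145 to -127 on the opposite strand. In Herpud1 the CARE (-184 to -177) lies on the opposite strand and the ERSE-II (-124 to -114) on the gene's own. The Trib3 CARE lies on the opposite strand from -21 to -14.

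Levels below are log2 of the processed Cy3 signal minus the array's own 75th percentile, so a level of 0 is the signal that 75% of probes lie under, and a difference of 1 is 2-fold. A level of one probe cannot be set against that of another. The 75th percentile signal was higher in WT (58.7 and 62.4) than in KO (47.3 and 52.1), and 40.7% to 43.6% of probes were well above background. Array position ran from 1 to 4 in the order WT control, WT Ang II, KO control, KO Ang II, so position and group cannot be told apart. The brighter Prkcb probe, which checks the genotype labels, had signals of 14.7 and 17.8 in WT and 1.93 and 1.88 in KO, the last pair not above background; the sources used here do not give whether it lies inside the deleted stretch. All 10 smooth muscle markers were well above background on all arrays.

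Most of the module was lowest on the KO control array. The lowest of a member's 4 levels was there for 30 of 37 members measured on all arrays, a position that 25.4% of all genes had. Among chaperone and ERAD genes it was 20 of 21, the exception being Dnajc10, whose KO levels were 3.45 without and 3.44 with Ang II. The highest level was in WT Ang II for 22 of 37 members (32.2% of all genes) and for 17 of 21 chaperone and ERAD genes. Of 9 ATF4 targets measured on all arrays, 7 were highest in KO Ang II (20.2% of all genes) and 4 were lowest in KO control. Most of these leads were small. KO Ang II and the next highest array both rounded to 7.55 for Ddit3 and to 5.12 for Mthfd2. They were at 7.30 and 7.25 for Ppp1r15a, 3.80 and 3.74 for Trib3, and 2.66 and 2.57 for Phgdh. Psat1 (3.04 and 2.85) and Shmt2 (3.68 and 3.45) were further apart. Highest in WT control were 3 of 37 members (20.1% of all genes), and lowest in WT Ang II were 4 (25.6%). The same KO control array enters both the genotype comparison without Ang II and the Ang II comparison in KO, so a low array gives both a lower genotype value and a higher Ang II value.

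**Figure D1:**
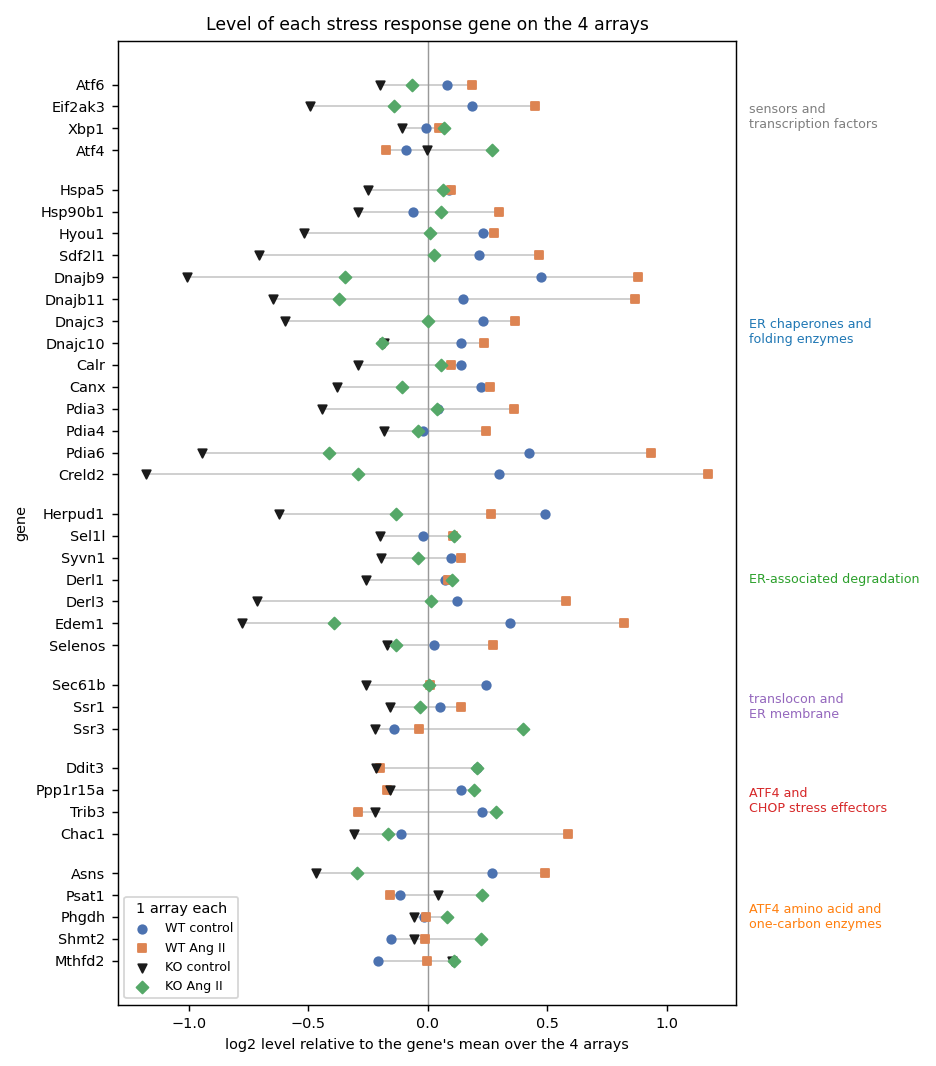
Level of each of the 37 members on the 4 arrays relative to the member's own mean over the 4 arrays (log2, horizontal axis), with members grouped by role and 1 symbol per array. The KO control symbol is the leftmost in 30 of the 37 members.

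Without Ang II, the chaperone arm was lower in KO than in WT. All 14 measured chaperones and folding enzymes were below 0, with a median log2 ratio of -0.68 and a range of -1.48 to -0.16. Over the module, 13 of 38 members compared were at least 1.5-fold lower, where 11.0% of all genes were, and 0 were at least 1.5-fold higher, where 10.9% were. At least 2-fold lower were 5 members, Creld2, Dnajb9, Pdia6, Herpud1 and Edem1, where 3.27% of all genes were, and 0 at least 2-fold higher (2.36%). Of 37 members measured on both arrays, 4 were above 0 (Atf4, Psat1, Shmt2 and Mthfd2; 53.2% of all genes), and the median was -0.34 against 0.04 for all genes. With normexp background correction the member median was -0.52.

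Creld2, a secreted ER protein made under ER stress, had levels of 3.55 in WT control, 4.42 in WT Ang II, 2.07 in KO control and, with Ang II, 2.95. Both WT levels lay above both KO levels, and within each genotype Ang II was the higher. The genotype ratio was -1.48 without Ang II (2.78-fold lower) and -1.47 with it, and the Ang II ratio was 0.87 in WT and 0.88 in KO. Pdia6, a protein disulfide isomerase, followed the same order with levels of 5.25, 5.76, 3.88 and 4.41. It was 2.59-fold lower in KO without and 2.55-fold lower with Ang II. Its probe was spotted 10 times, and the spread of spots within arrays gave the ratio of -1.37 an SD of 0.10. Spread between arrays is not in that SD. Dnajb9 (ERdj4), a co-chaperone of BiP, had levels of 1.91, 2.32, 0.43 and 1.09 in the same order of arrays. Its KO levels again lay below both WT levels, by 1.48 without and 1.22 with Ang II.

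Dnajb11 (ERdj3), another BiP co-chaperone, had levels of 2.34 in WT control, 3.06 in WT Ang II, 1.54 in KO control and, with Ang II, 1.82. Its genotype ratio was larger with Ang II (-1.24) than without (-0.79). For 4 further chaperones the gap between genotypes was instead smaller with Ang II. Sdf2l1, a partner of BiP co-chaperones, had levels of 4.71, 4.96, 3.79 and 4.52, with genotype ratios of -0.92 without and -0.44 with Ang II. Hyou1, an ER Hsp70 relative that exchanges nucleotide on BiP, had levels of 6.73, 6.78, 5.98 and 6.51, with KO control the lowest by 0.53. Dnajc3 (p58IPK), which restrains PERK, had ratios of -0.83 without and -0.36 with Ang II, and Canx, the membrane lectin chaperone calnexin, of -0.60 and -0.37.

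Hspa5 encodes BiP, the main ER Hsp70 and the usual readout of ER stress. Its levels were 8.02 in WT control, 8.03 in WT Ang II, 7.68 in KO control and, with Ang II, 8.0. The 2 WT arrays and the KO Ang II array were within 0.03 of each other. KO control was lower than WT control by 0.34, and its 10 spots within each array gave that ratio an SD of 0.11. Hsp90b1 (GRP94), the ER Hsp90, had levels of 6.17, 6.53, 5.94 and 6.28, with Ang II ratios of 0.36 in WT and 0.35 in KO. Calr, the soluble lectin chaperone calreticulin, had a ratio of -0.43 without and -0.04 with Ang II. The remaining 3, Dnajc10 and the isomerases Pdia3 and Pdia4, lay between -0.48 and -0.16 without Ang II and between -0.43 and -0.28 with it.

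The ERAD genes, which pull misfolded proteins out of the ER for destruction, were lower in KO without Ang II in 7 of 7 measured members, with a median of -0.33. Herpud1, a stress-induced scaffold of the degradation complex, had levels of 5.45 in WT control, 5.23 in WT Ang II, 4.34 in KO control and, with Ang II, 4.83. Its genotype ratio was -1.12 without Ang II and -0.40 with it. Edem1, a lectin that picks out misfolded glycoproteins, had levels of 5.38, 5.86, 4.26 and 4.65 on its brightest probe, an order that a second probe did not share. Derl3, a derlin of the export channel, had levels of 5.45, 5.91, 4.62 and 5.34, and was lower in KO by 0.84 without and 0.56 with Ang II. Sel1l and Syvn1, the core of the HRD1 ubiquitin ligase, Derl1 and Selenos lay between -0.33 and -0.18 without Ang II.

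Under Ang II the genotype difference was smaller for the chaperones, with a median of -0.37 against -0.68 without Ang II, but not for ERAD. The ERAD median was -0.40 with and -0.33 without Ang II. In each comparison 5 members were at least 2-fold lower. At least 1.5-fold lower in KO were 8 of 39 members compared, where 14.0% of all genes were, and 0 were at least 1.5-fold higher (8.99%). At least 2-fold lower were 5, Creld2, Pdia6, Dnajb11, Dnajb9 and Edem1 (4.38% of all genes), and the other 3 were Asns, Chac1 and Eif2ak3. All 14 chaperones and 5 of 7 ERAD genes were below 0. The member median was -0.25, and 13 of 38 members were above 0 (48.3% of all genes).

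**Figure D2:**
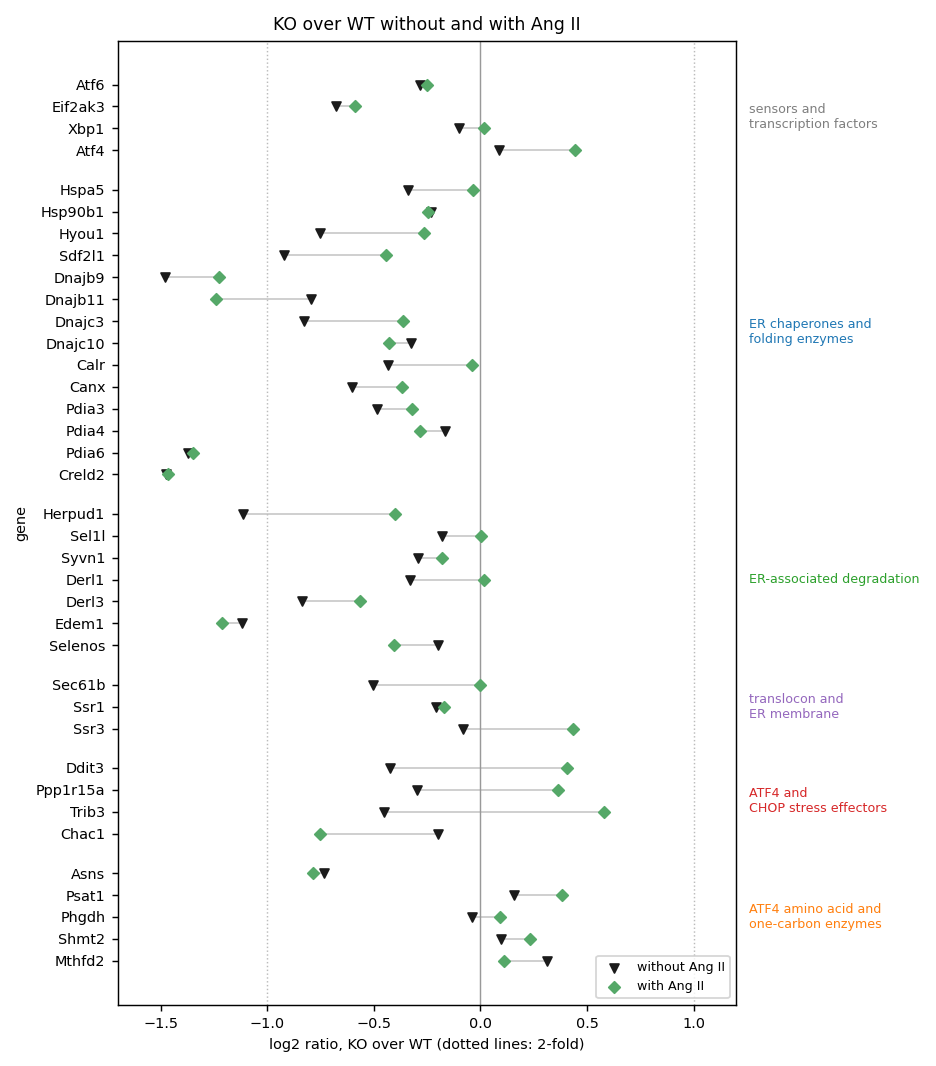
KO against WT log2 ratio (horizontal axis) of each member measured on all arrays, with members in rows grouped by role. Triangles are without Ang II and diamonds with Ang II, and each uses its own pair of arrays. Creld2, Pdia6, Dnajb9 and Edem1 are below -1 on both symbols, and most ATF4 targets lie above 0 with Ang II.

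The Ang II ratios of the members were mostly small in both genotypes. In WT, 3 of 39 members (7.69%) were at least 1.5-fold higher, a share near that of all genes (7.48%). They were the chaperones Creld2 and Dnajb11 and the ATF4 target Chac1. In WT 0 members were at least 1.5-fold lower (4.43% of all genes). The WT member median was 0.10, with 29 of 38 members above 0 (55.3% of all genes), and lay between 0.06 and 0.21 in the alternative settings. Below 0 in WT were 9 of 38 members, 17 with quantile normalization, 15 with the 75th percentile of detected probes and 7 with normexp correction. When a gene's probes were averaged instead of taking the brightest, 5 members were at least 1.5-fold higher. In KO, 7 of 38 members were at least 1.5-fold higher (2.06% of all genes), and 0 were at least 1.5-fold lower (3.24%). These 7 were Creld2, Sdf2l1, Derl3, Dnajb9, Ssr3, Dnajc3 and, as a bound, Sesn2. The KO member median was 0.31, with 36 of 37 members above 0 (48.4% of all genes). On its brightest probe no member was higher with Ang II by 2-fold or more, where 1.43% of all genes were in WT and 0.183% in KO. None was lower by as much, where 0.886% were in WT and 0.776% in KO. Dimmer probes well above background on both arrays went past 2-fold for Derl3 in WT (1.06) and for Edem1 in KO (1.13 on probe 3). The second Canx probe (1.52 in WT and 1.53 in KO) and the dimmer Derl3 probe in KO (1.82) were also past 2-fold. In these the control array was not well above background.

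Chaperone and ERAD genes had a median Ang II ratio of 0.25 in WT and 0.36 in KO. In WT, 19 of 21 were above 0, the exceptions being Herpud1 (-0.23) and Calr (-0.04). That count depended on the scaling. Below 0 were 7 of 21 with quantile normalization, 7 with the 75th percentile of detected probes and 1 with normexp correction. In KO, 20 of 21 were above 0, and Dnajc10 was at -0.01. Hsp90b1, Pdia6 and Creld2 had nearly the same ratio in both genotypes, within 0.02 of each other, whereas Herpud1, Hyou1, Sdf2l1 and Dnajc3 were higher in KO than in WT by 0.47 to 0.72. An SD of 0.11 for a log2 ratio of single spots was reckoned from the spread of repeated spots within arrays. Differences between arrays in labelling, hybridisation and scanning are not in it, and neither is biological spread.

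The sensors and transcription factors differed less. Eif2ak3, the PERK kinase, had levels of 2.79 in WT control, 3.05 in WT Ang II, 2.11 in KO control and, with Ang II, 2.46, and was lower in KO by 0.68 without and 0.59 with Ang II. Atf6 had genotype ratios of -0.28 and -0.25 on its brightest probe. Total Xbp1 signal, which does not separate the spliced from the unspliced form, was within 0.17 over the 4 arrays. Atf4, the transcription factor of the integrated stress response, had levels of 4.89, 4.81, 4.98 and 5.25, with the KO Ang II array the highest by 0.27. ATF4 is controlled mainly by translation, so its RNA level is not its activity.

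Among translocon and membrane members, Sec61b, a subunit of the translocation channel, had levels of 3.92, 3.68, 3.41 and 3.68. Ssr3, a subunit of the translocon-associated complex, was near one level on 3 arrays (2.62, 2.72 and 2.53) and higher in KO Ang II (3.15). Ssr1, of the same complex, had genotype ratios of -0.21 without and -0.17 with Ang II. Wfs1, an ER membrane protein tied to calcium balance, was well above background in WT Ang II only, at least 1.38-fold above WT control and at least 1.19-fold above KO Ang II. Such bounds take the higher of the dim value and the lowest signal measured above background on that array.

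Of the 5 stress effectors of ATF4 and CHOP, Ddit3, Ppp1r15a and Trib3 had another order of arrays than most chaperones. Ddit3 (CHOP), the factor that drives the late, death-prone phase of the response, had levels of 7.55 in WT control, 7.14 in WT Ang II, 7.13 in KO control and, with Ang II, 7.55. WT without and KO with Ang II were thus the 2 high arrays. Ppp1r15a (GADD34), which brings the phosphatase that reverses eIF2 phosphorylation, had levels of 7.25, 6.94, 6.95 and 7.30. Trib3, a pseudokinase that is a CHOP and ATF4 target, had levels of 3.74, 3.22, 3.29 and 3.80. For all 3 genes the array pair that was high and the pair that was low did not overlap, and the Ang II ratio was below 0 in WT and above 0 in KO.

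The Ang II ratios were -0.40 in WT and 0.42 in KO for Ddit3, -0.31 and 0.35 for Ppp1r15a, and -0.52 and 0.51 for Trib3. The KO ratio minus the WT ratio was 0.83, 0.66 and 1.03, the last a 2.04-fold difference. With Herpud1 (0.72), these were the 4 of 37 members whose responses differed by at least 1.5-fold towards KO, where 6.24% of all genes did; 0 differed as much towards WT, where 10.3% did. Trib3 alone differed by at least 2-fold towards KO (1.27% of all genes) and 0 members towards WT (2.87%). The response was higher in KO for 28 of 37 members (44.0% of all genes). This difference rests on 4 single arrays and has no residual from which to test it.

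Chac1, which breaks down glutathione, had the order of most chaperones, highest in WT Ang II and lowest in KO control. Its levels were -0.56 in WT control, 0.13 in WT Ang II, -0.76 in KO control and, with Ang II, -0.62, with WT Ang II the highest by 0.70. Its Ang II ratio was 0.70 in WT and 0.15 in KO, and it was 1.68-fold lower in KO under Ang II. Sesn2, a stress-induced regulator of mTOR signalling, was not well above background in KO control and was at least 1.59-fold higher in KO with Ang II. Its level was -2.06 in WT control, -2.19 in WT Ang II and -1.84 in KO Ang II.

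The metabolic enzymes under ATF4 showed little difference except Asns. Asns, asparagine synthetase, had levels of 1.43 in WT control, 1.65 in WT Ang II, 0.70 in KO control and, with Ang II, 0.87, with both KO levels below both WT levels, by 0.73 without and 0.79 with Ang II. Phgdh and Psat1, enzymes of serine synthesis, had genotype ratios of -0.04 and 0.16 without Ang II and 0.09 and 0.38 with it. Shmt2 and Mthfd2, of mitochondrial one-carbon metabolism, had ratios of 0.10 and 0.31 without and 0.23 and 0.11 with Ang II. The 5 enzymes had a median Ang II ratio of 0.14 in WT and 0.17 in KO.

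**Figure D3:**
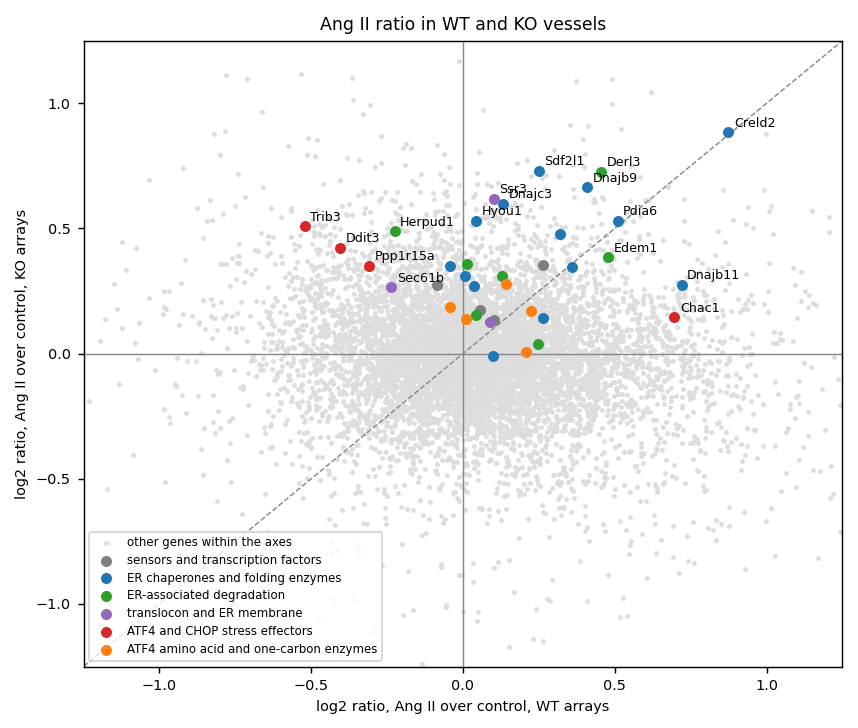
Ang II log2 ratio in WT (horizontal axis) and in KO (vertical axis), with 1 pair of arrays per genotype. Members measured on all arrays are coloured by role, and other genes within the axes are grey. Ddit3, Ppp1r15a and Trib3 are below 0 in WT and above 0 in KO, whereas Creld2, Pdia6 and Hsp90b1 have nearly equal ratios in both.

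The 2 arms were set side by side by their medians. Without Ang II the median KO against WT ratio was -0.60 for 21 chaperone and ERAD genes and -0.20 for 9 ATF4 targets. At least 1.5-fold lower were 11 of the 21, where 11.0% of all genes were. Of 10 ATF4 targets compared 1 was, Asns, a share near that of all genes. With Ang II the medians were -0.37 and 0.29, with 19 of 21 chaperone and ERAD genes below 0 and 8 of 10 ATF4 targets above 0, where 48.3% of all genes were above 0; with normexp correction the ATF4 median was 0.07. The Ang II medians of the ATF4 targets were -0.02 in WT, a value whose sign changed between settings (-0.06 to 0.05), and 0.19 in KO. Within the ATF4 list the stress effectors had medians of -0.31 in WT and 0.39 in KO. The median difference of Ang II responses was 0.18 for the chaperone and ERAD genes and 0.14 for the ATF4 targets. Within the ATF4 list it was 0.74 for 4 stress effectors and 0.13 for 5 enzymes. At least 1.5-fold towards KO were 3 of 9 ATF4 targets and 1 of 21 chaperone and ERAD genes, where 6.24% of all genes were.

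**Figure D4:**
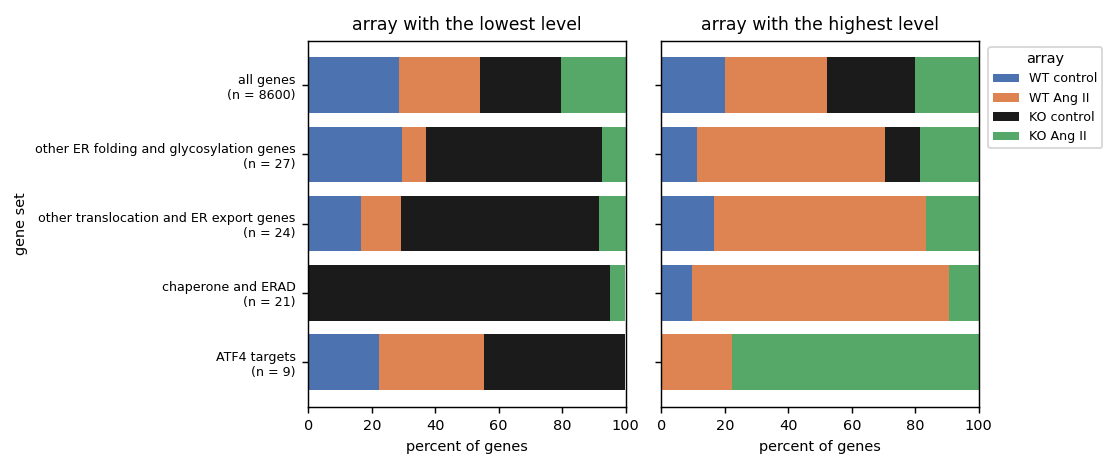
Share of genes whose lowest or highest level fell on each of the 4 arrays (percent, from 0), for all genes, chaperone and ERAD members, ATF4 targets and the further genes of ER folding and of translocation and export, each measured on all arrays. KO control holds the lowest level of 20 of 21 chaperone and ERAD genes. KO Ang II holds the highest of 7 of 9 ATF4 targets, with near ties for Ddit3 and Mthfd2. Lists not drawn differ from this or share it outside the ER. KO control was lowest for 5 of 17 further ERAD genes and for 19 of 22 hypoxia and glycolysis genes. KO Ang II was highest for 8 of 29 further ATF4 targets.

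An additive limma fit of genotype and Ang II to 9387 genes used all 4 arrays with 1 residual degree of freedom, and its residual is the difference of the Ang II responses. Sesn2 entered with its dim KO control value, and Ern1 and Wfs1 did not enter. By limma with Benjamini-Hochberg adjustment over all genes, 0 of 38 members passed an adjusted p of 0.05 for genotype, as did 0.00% of all genes. At an unadjusted p under 0.05, 12 members (31.6%) were lower and none higher, where 26.2% of all genes passed in either direction. The smallest adjusted p in limma was 0.0888 for Creld2, at -1.47 ± 0.15 (SE, 2 arrays of each genotype). Pdia6 followed at -1.36 ± 0.15, Dnajb9 at -1.35 ± 0.16 and Edem1 at -1.17 ± 0.15. Asns, the only ATF4 target among the 12, was at -0.76 ± 0.15.

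For Ang II, limma called 0 of 38 members, as it did 0.00% of all genes, and every member's adjusted p was 0.9998 after rounding. At an unadjusted p under 0.05 there were 5 of 38 members (13.2%), all higher with Ang II, where 3.84% of all genes passed. They were Creld2 at 0.88 ± 0.15 (SE), Derl3 at 0.59 ± 0.17, Dnajb9 at 0.54 ± 0.16, Pdia6 at 0.52 ± 0.15 and Edem1 at 0.43 ± 0.15. The Edem1 value is that of its brightest probe, and its 2 other probes were below 0 for Ang II in WT. Ddit3, Ppp1r15a and Trib3 had fitted Ang II ratios between -0.01 and 0.02, since the additive fit averages their opposite signs into the residual.

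Other probes of the same gene did not always repeat these values. Edem1 had 3 probes well above background on all arrays. Its KO against WT ratio without Ang II was -1.12, 0.13 and -1.46 on probes 1, 2 and 3, and with Ang II -1.21, 0.72 and -0.15. Edem1 was thus lower in KO in both comparisons on 2 of its 3 probes, and the mean of the 3 was -0.82 without and -0.21 with Ang II. Its Ang II ratio in WT was 0.48, -0.34 and -0.17 on probes 1, 2 and 3, and in KO 0.39, 0.25 and 1.13, so only the brightest probe was higher with Ang II in both genotypes. Atf6 had ratios of -0.28 and 0.18 on its 2 probes without Ang II and -0.25 and 0.72 with it. Ssr1 and Mthfd2 kept the sign of all 4 ratios on their second probes. The dimmer Derl3 probe had signals of 42.1, 93.1, 5.82 and 22.7, lowest in KO control, where it was not well above background. Which transcripts the probes read was not tested.

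**Figure D5:**
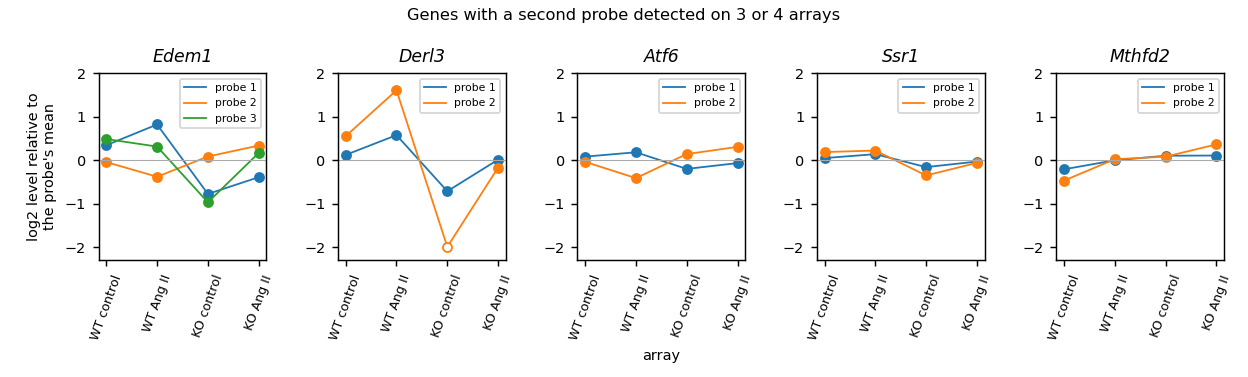
Level of each probe on the 4 arrays relative to that probe's mean (log2) for the 5 members, of 10 with more than 1 named probe, whose second probe was well above background on 3 or 4 arrays; open symbols are not well above background. Edem1 probes 1 and 3 are lowest in KO control and probe 2 in WT Ang II, and both Derl3 probes are lowest in KO control.

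The wider pathway gave a less uniform picture. Of 135 further genes listed for ER folding, ERAD, translocation and export, ER stress regulation and ATF4, 119 were compared between genotypes without Ang II. Of these, 18 were at least 1.5-fold lower in KO (11.0% of all genes) and 3 higher (10.9%), with a median of -0.15 over 115 measured genes. The largest values in ER folding were those of Pdia5 (-1.39), P4hb (-1.28), the disulfide isomerase that is also a subunit of collagen prolyl hydroxylase, Ostc of the oligosaccharyltransferase (-1.08) and Nucb2 (-0.96). In translocation and export Tram1 was at -1.01 and Kdelr2, a retrieval receptor of ER proteins, at -0.75. The other 17 ERAD genes had a median of 0.09, and the 7 measured members one of -0.33.

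Under Ang II, 20 of 118 further genes were at least 1.5-fold lower in KO (14.0% of all genes) and 4 higher (8.99%), and P4hb, Ostc and Tram1 were at -1.32, -1.25 and -0.92. For Ang II itself, 17 of 119 were at least 1.5-fold higher in WT (7.48% of all genes) and 2 lower (4.43%). In KO 4 of 118 were higher (2.06%) and 2 lower (3.24%). The 28 measured genes of ER folding and glycosylation had a median of 0.34 in WT, with Prkcsh at 0.87 and Ddost at 0.70, and 27 had a median of 0.17 in KO. The other ATF4 targets had a median of -0.07 in WT and 0.19 in KO, over 29 genes each. They did not repeat the members' KO against WT values with Ang II. Their median there was 0.03, with 15 of 29 above 0, where 8 of 10 member ATF4 targets were. Highest in KO Ang II were 8 of the 29 (27.6%), where 20.2% of all genes were.

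Other measures moved with the genotype as well. In these bulk samples fewer cells of a type and less RNA per cell cannot be told apart. Macrophage markers (11 listed) had a summed signal, relative to the 75th percentile, of 56.9 and 65.2 in WT and 29.8 and 36.5 in KO, with 8 to 10 of 11 well above background on each array. The sum over 10 smooth muscle markers was 156 and 155 in WT and 217 and 231 in KO, and that over 8 fibroblast markers was 258 to 301 on all arrays. Single fibroblast markers were less even than their sum. Their median KO against WT ratio was -0.11 without Ang II, with 4 of 8 below 0. With Ang II it was -0.55, with 6 of 7 measured markers below 0. Endothelial markers (7 with a probe, 5 well above background on each array) summed to 23.4 and 20.7 in WT and 17.9 and 19.4 in KO. Adipocyte markers (6 with a probe, 1 to 3 well above background) summed to 2.61 and 1.99 in WT and 1.1 and 1.42 in KO. Plasma cells are rich in this machinery, but of 7 of their markers with a probe only Sdc1, which other cells also express, was well above background on any array. Collagen and matrix genes, the main cargo of the vessel wall's ER, had a median ratio of -0.88 without and -1.0 with Ang II over 15 and 16 measured genes. The part of macrophage, fibroblast, smooth muscle, endothelial and adipocyte content and of matrix cargo in the lower chaperone values of KO vessels was not tested.

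Heat shock genes of the cytosol and mitochondria, which answer to another factor, did not share the chaperones' sign. Their median KO against WT ratio was 0.26 without and 0.35 with Ang II, with Hsph1 at 1.03 without and Cryab at 1.19 with it. Hypoxia and glycolysis genes were nearer the ER chaperones, at a median of -0.74 without and -0.13 with Ang II over 22 genes. Their Ang II ratio was above 0 in 22 of 22 in KO, with a median of 0.43, and in 9 of 22 in WT.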

How the data were processed

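RNA of rat vessels was labelled with Cy3 and hybridised to 1 Agilent array a group, per the labels' protocols. The deposited intensity values are scanner output: the processed signal is background-subtracted, and flags (a 0 or 1 score for each spot) mark outliers, saturation and signal well above background, per the file headers. The file headers give Feature Extraction 10.7.1.1 and the submitters' processing notes 12.1.1.1. In the authors' deposited log2 table, 98.0% to 98.1% of probes lay within 0.01 of the log2 processed signal shifted by 1 constant per array.

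Outlier spots were left out, spots of a probe averaged, and 4 probes with no usable spot dropped, which left 45594. Values are log2 signal minus the array's 75th percentile, since no normalization between arrays was in the signal. Probes were named through GRCr8 RefSeq accessions (21107 of 45594 probes). A gene took its brightest probe. Size rules of 1.5-fold and 2-fold stood in for tests. With limma 3.58.1 (R 4.3.3), genotype and Ang II were fitted additively to genes detected above background on 2 arrays or more. This fit was also run on simulated data built without any difference of Ang II responses between genotypes. That run therefore cannot show how such differences affect the fit. Python 3.11.15 was used elsewhere.

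The 42 members and the other gene lists were chosen with earlier results of these data known. All members are named; of every other list, up to 4 genes with the largest absolute ratio in a comparison could be. Alternatives were normexp correction (offset 50, on the median signal, because the files used here hold no mean signal), quantile normalization, 2 scalings on detected probes, the mean of a gene's probes, 2 filters and the deposited table. The scanner software's error on a member's signal was 10.0% to 12.4%, and 26 of 37 members had 1 spot, so the number of arrays limits the precision.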

Additional observations from a re-analysis of the deposited data

Results flagged for a closer look

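The Ang II ratio had opposite signs in WT and KO for 9 of 37 members measured on all arrays (24.3%), where 53.8% of all 8600 genes had opposite signs. With 1 array a group the difference was not tested for any of them.

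The KO ratio minus the WT ratio was 1.03 for Trib3, 0.83 for Ddit3 and 0.66 for Ppp1r15a, the stress effectors under ATF4 and CHOP. Herpud1, the degradation scaffold, was at 0.72, with -0.23 in WT and 0.49 in KO. Sec61b of the translocation channel was at 0.50, with -0.24 in WT and 0.26 in KO. The lectin chaperone gene Calr was at 0.39 and Atf4 itself at 0.36, and their WT ratios were -0.04 and -0.08. Psat1 of serine synthesis was at 0.23, with -0.04 in WT. Dnajc10, an ER disulfide reductase, was at -0.11, the only member of the 9 with its higher ratio in WT. Of the 9, the WT ratios of Psat1, Calr, Atf4 and Dnajc10 were no larger than the SD of 0.11 between single spots.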

How the results depend on the processing

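With 1 array a group, no array could be left out with a spread remaining. No paired analysis was possible because every group holds 1 array, and the only number the groups share is replicate 1. All 8 alternatives were run. Over the 35 member ratios of at least 1.5-fold, 279 values under the alternatives kept their sign and 13 fell under 1.5-fold. Over all 191 member ratios, 50 of 1522 changed sign, all of them among ratios under 1.5-fold. At least as large as the SD of 0.11 from repeated spots were 123 shifts, 76 of these with normexp correction.

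The member median for KO against WT without Ang II was -0.34, and it was -0.52 with normexp correction and -0.49 with quantile normalization. The chaperone and ERAD median minus the ATF4 target median for KO against WT with Ang II was -0.66, and -0.44 with normexp correction. The same gap for Ang II in KO was 0.17, and 0.29 when a gene's probes were averaged. That setting gave 5 in place of 3 members at least 1.5-fold higher with Ang II in WT. Members below an unadjusted p of 0.05 in limma numbered 12 for genotype and 5 for Ang II, and 22 and 14 with normexp correction, with 0 after adjustment in every setting. Without a filter on dim probes the all-gene median moved from 0.04 to 0.17 for KO against WT without Ang II. Signal near background limits Ern1, Wfs1 and Sesn2, and 1 spot each the precision of 26 members.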

Other observations

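Atf3, a transcription factor induced with CHOP, had the order of the stress effectors: its levels were 4.55 in WT control, 3.98 in WT Ang II, 3.89 in KO control and, with Ang II, 4.72. Its Ang II ratio was -0.58 in WT and 0.83 in KO. Gdf15, a stress cytokine and ATF4 target, did not have that order, with 2.32, 4.22, 3.34 and 3.68 on the same arrays. WT Ang II was its highest array, 1.90 above WT control. Slc7a11, the cystine transporter and another ATF4 target, had levels of 3.92, 4.75, 2.62 and 2.84, with both KO levels under both WT levels.

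Outside the listed genes, 25 promoters held an ERSE or ERSE-II, and 8 of these genes were measured on all arrays. Their KO against WT ratio without Ang II was below 0 in 6 of 8, with a median of -0.10. In the 11 members with such an element it was below 0 in 11, with a median of -0.75. Of all genes 53.2% were above 0. All 21 measured chaperone and ERAD genes were below 0, including those in which no such element was found. Nucb1, a calcium-binding protein of the Golgi whose promoter holds an ERSE-II, was at 0.82 for Ang II in WT and -0.11 in KO, and was lower in KO under Ang II by 1.03. The members and the motifs were both chosen with knowledge of this pathway, so these counts describe the genes and support nothing further.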
